A study of Mus musculus with 2 samples.

Results

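Genes of the cell's antioxidant systems were examined in haematopoietic stem cells, which reside in bone marrow and renew the blood, of Wip1 knockout and wild-type mice. The Ppm1d gene encodes Wip1, a phosphatase that dampens stress signalling. Total RNA was hybridised to Affymetrix expression arrays, with 1 array for the Wip1 knockout and 1 for the wild type, both from animals aged 3 months. The labels name no allele, strain, sex or number of animals, and the sorting of the stem cells is not described in the sources used here. The antioxidant genes were listed by their known function, and each was measured by the probe sets that the platform's annotation assigns to it and to no other gene. A probe set is a group of short probes read together as 1 value. Of 41 listed genes, 38 had such a probe set (79 probe sets in all), among 18193 genes measured. Prdx1, Prdx5 and Prdx6 had none.

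Oxygen metabolism releases superoxide, which superoxide dismutases turn into hydrogen peroxide. Catalase, peroxiredoxins and glutathione peroxidases remove the peroxide. Thioredoxin recharges peroxiredoxins and glutathione recharges glutathione peroxidases, and both systems draw on NADPH. Glutathione transferases attach glutathione to reactive compounds, and the transcription factor Nrf2, held in check by Keap1, induces many of these genes. Haematopoietic stem cells are known to be sensitive to oxidants.

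Values are deposited intensities on a linear scale. Differences are log2 knockout minus wild type, centred by subtracting the median difference of detected probe sets with 1 gene. Each gene was represented by its probe set with the highest mean of both arrays, and was called detected when that probe set lay above the median of all probe sets on at least 1 array (25.9 in the knockout, 25.2 in the wild type). Signal above that median is a matter of brightness only and no proof of expression. By this rule 37 of the 38 genes were detected. The exception was Sod3, the secreted superoxide dismutase, which read 9.94 on both arrays. With 1 array per genotype no test across samples was possible and no p-value is given, so every difference is one between these 2 samples and genotype cannot be told apart from any other difference between the preparations. The only error in the data is the disagreement between probe sets of a gene. Its SD was 0.21 on the log2 scale over 4761 genes with several probe sets detected on both arrays, and it holds no variation between animals or arrays. Fewer cells of a type and less RNA per cell cannot be told apart in such samples. Different probe sets bind with different strength, so intensities are compared between arrays and not between genes.

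The samples as a whole limit what the comparison can carry. Ppm1d itself read 159.7 in the knockout and 167 in the wild type in its brighter probe set (log2 difference -0.05), and 59.0 and 55.6 in its other one (0.10). The position of either one with respect to the deleted stretch is not given here. Xist, the RNA of the silenced X chromosome, read 3778 in the knockout and 6228 in the wild type, and the Y-linked Eif2s3y read 149 and 31.8. The Y-linked Kdm5d read 65.2 in the knockout and 8.92 in the wild type, and Uty 29.3 and 6.92. Both wild-type values lay under the median of all probe sets. Sex-linked genes thus differed between the samples, and the part of sex in the other differences was not tested. All 10 stem cell markers measured were detected on at least 1 array, among them Kit, Procr and Mecom. By the same rule 11440 of all 18193 genes measured were detected. Hoxb5 was detected on the wild-type array only (29.6), and its 21.6 in the knockout lay under the median of all probe sets. Hlf was 1.63-fold higher in the knockout, and Slamf1 and Tek were 1.58-fold and 1.51-fold lower.

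Most antioxidant genes differed by less than 1.5-fold between the samples, and the 2 largest differences were those of membrane-bound glutathione transferases, which were higher in the knockout. Of the 37 detected genes, 2 (5.4%) were at least 1.5-fold higher in the knockout, against 2.32% of all 11440 detected genes, and 0 were at least 1.5-fold lower, against 1.55%. Both higher genes, Mgst1 and Mgst2, encode microsomal glutathione transferases. None of the 37 reached 2-fold either way, against 0.664% of all detected genes. The median difference was -0.07, against 0.00015 over all detected genes and -0.01 over the 6953 that were bright (above the 75th percentile of all probe sets), a class that held 31 of the antioxidant genes. A total of 24 of the 37 lay below 0 and 13 above it, while 50.0% of all detected genes lay below 0. By a margin of 1 SD between probe sets, 10 antioxidant genes (27.0%) were lower, against 16.9% of all detected genes, and 9 (24.3%) were higher, against 17.9%. The remaining 18 lay within that SD. This margin was set with the values already known.

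**Figure D1:**
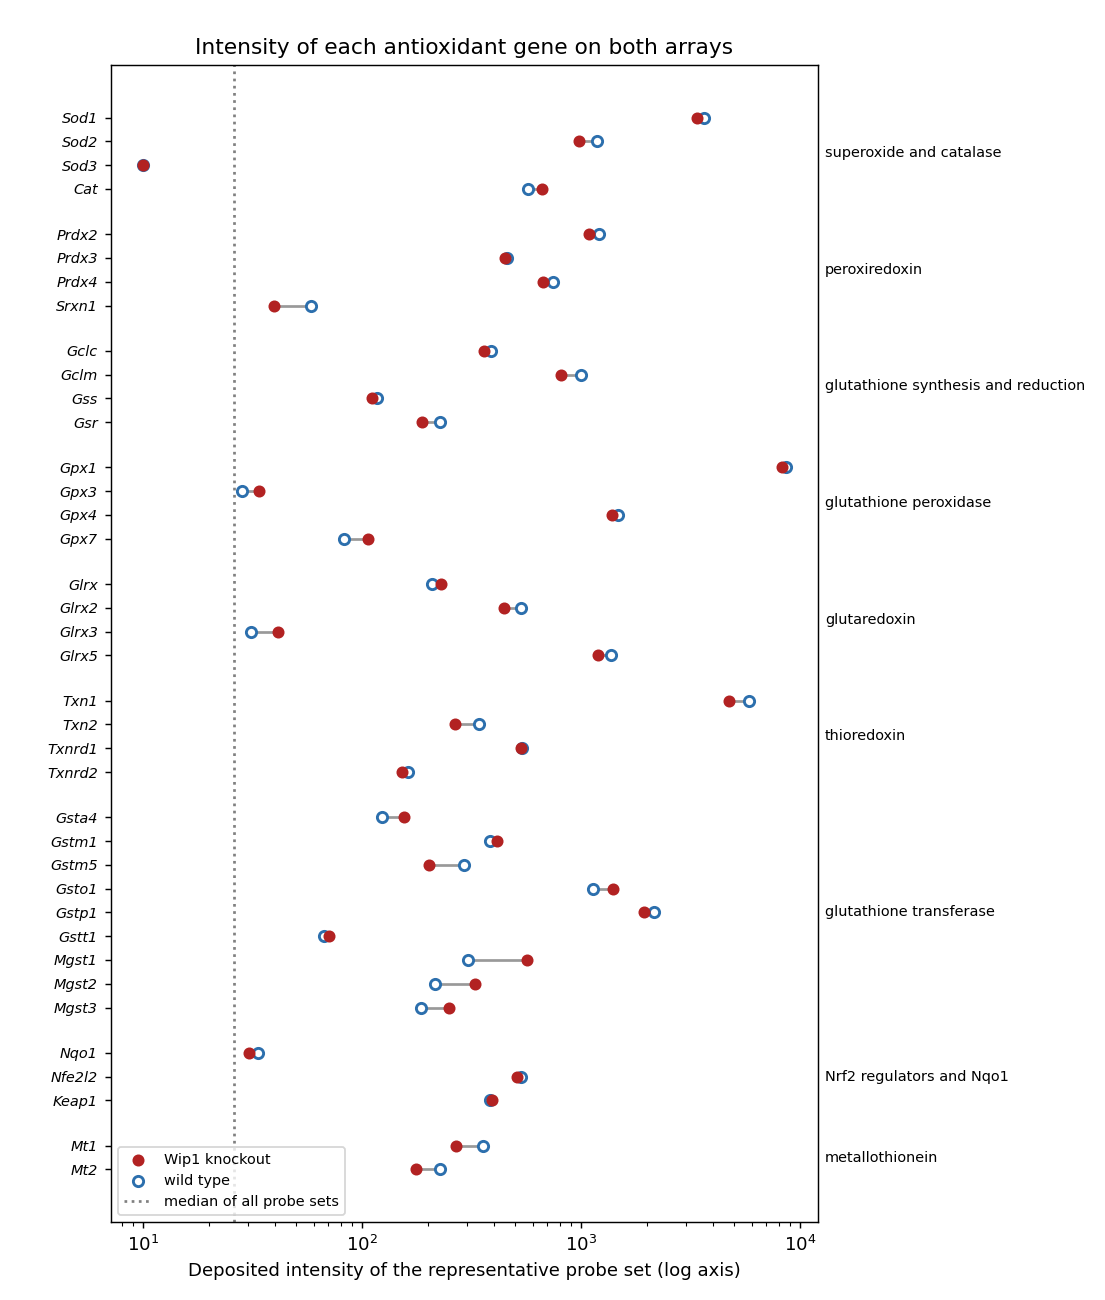
Deposited intensity of each measured antioxidant gene in its representative probe set (log axis), with the Wip1 knockout array as a filled point and the wild-type array as an open point, 1 array each, grouped by system. The widest gap is at Mgst1 (563 in the knockout, 304 in the wild type), and Sod3 lies under the median of all probe sets on both arrays.

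Of the superoxide dismutases and catalase, Sod2 was lower in the knockout by more than the SD, and Sod1 and Cat gave mixed signs over their probe sets. Sod1, the cytosolic copper and zinc enzyme, read 3372 in the knockout and 3636 in the wild type in its representative probe set, a log2 difference of -0.10. Its 4 detected probe sets spread widely, with -0.14, 0.06 and 0.92 in the others. The last of these read 170.4 in the knockout and 91.2 in the wild type, and was the only detected probe set of Sod1 to exceed 1.5-fold. Sod2, the manganese enzyme of mitochondria, read 976 in the knockout and 1179.5 in the wild type (-0.26). A second bright probe set of Sod2 gave the same value (-0.26), a dimmer one with 169 in the knockout and 256 in the wild type gave -0.58, and the dimmest, close to the median of all probe sets, gave 0.07. In 3 of its 4 probe sets Sod2 was thus lower by more than the SD. Cat, which splits hydrogen peroxide into water and oxygen, read 661 in the knockout and 572 in the wild type (0.22), but its other probe set read 361 and 391 (-0.10), so the 2 probe sets disagreed in sign.

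Peroxiredoxins, thiol enzymes that reduce hydrogen peroxide, differed by less than the SD in the representative probe sets of all 3 measured members. Prdx2, the cytosolic form abundant in red cells, read 1089.7 in the knockout and 1201 in the wild type (-0.13, with 0.16 in its other probe set). Prdx3, the mitochondrial form, read 451 and 459 (-0.01). Prdx4, the form of the endoplasmic reticulum, read 669 and 742 (-0.13), and its other detected probe sets gave 0.08 and -0.45. Probe sets that name Prdx1 together with Gm21399 were outside the selection. There were 5 of them, all lower in the knockout, from -0.54 to -0.09, and the brightest read 4925 in the knockout and 5594 in the wild type. These cannot be ascribed to Prdx1 alone.

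Srxn1 encodes sulfiredoxin, the enzyme that repairs over-oxidised peroxiredoxins and a known Nrf2 target. It showed the lowest difference of the 37 genes in its representative probe set, which read 39.7 in the knockout and 58.2 in the wild type (-0.54). Of its other detected probe sets, one was lower by at least 0.45 on the log2 scale, because its knockout value of 21.9 lay under the median of all probe sets against 35.7 in the wild type, and the other read 49.5 and 47.2 (0.08). All of these signals were dim, and 1 of the 3 detected probe sets went the other way.

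Of the genes that make and recycle glutathione, Gclm and Gsr were lower in the knockout by more than the SD in their representative probe sets. Gclm, the modifier subunit of glutamate-cysteine ligase, which makes the first and limiting step of glutathione synthesis, read 809 in the knockout and 997 in the wild type (-0.29), with -0.10 in its other probe set. Gclc, the catalytic subunit of the same enzyme, read 360.2 in the knockout and 389 in the wild type (-0.10), but 306 and 282 (0.13) in its other probe set. Gss, glutathione synthetase, differed by -0.07 and 0.0013 in its 2 probe sets. Gsr, the reductase that restores glutathione with NADPH, read 188 in the knockout and 226 in the wild type (-0.25), and its other probe set gave -0.20. The modifier subunit and the reductase were thus lower in both of their probe sets, whereas the catalytic subunit was not.

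Of the glutathione peroxidases, Gpx1 and Gpx4 differed by less than the SD and Gpx3 and Gpx7 were higher in the knockout. Gpx1, the main cytosolic selenoenzyme, read 8262 in the knockout and 8578 in the wild type (-0.04). Gpx4, which reduces lipid peroxides in membranes and guards against ferroptosis, read 1381 and 1474 (-0.08), with -0.14 in its other probe set. Gpx7, an enzyme of the endoplasmic reticulum, read 106 in the knockout and 82.3 in the wild type (0.38), and the secreted form Gpx3 read 34.0 and 28.2 (0.28). Gpx3 and Gpx7 each rested on 1 probe set, and both readings of Gpx3 were close to the median of all probe sets.

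Glutaredoxins, which use glutathione to reduce protein disulfides or to carry iron-sulfur clusters, went both ways. Glrx2, a mitochondrial form, read 443 in the knockout and 532 in the wild type (-0.25), and its other probe sets gave -0.21 and -0.15. Glrx5, which serves iron-sulfur cluster assembly in mitochondria, read 1190.4 and 1370.0 (-0.19). Glrx, the cytosolic form, gave 0.15 and -0.20 in its 2 probe sets. Glrx3, another iron-sulfur cluster carrier, read 41.2 in the knockout and 31.2 in the wild type (0.41) in its only probe set of this selection. A brighter probe set that names Glrx3 together with Gm12669 read 313 in the knockout and 349 in the wild type (-0.14), in the opposite direction. Another of that kind, also brighter, read 98.5 in the knockout and 136 in the wild type (-0.45). Neither can be ascribed to Glrx3 alone.

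The thioredoxins themselves were lower in the knockout. Txn1, the cytosolic thioredoxin, read 4755 in the knockout and 5861 in the wild type (-0.29), and its dim second probe set gave -0.19. Txn2, the mitochondrial thioredoxin, read 267 and 340.2 in its representative probe set (-0.34), with -0.31 and -0.04 in the others. Txnrd1, the cytosolic selenoenzyme that recharges thioredoxin, read 530.4 in the knockout and 538 in the wild type (-0.01), although its 2 dimmer probe sets gave -0.33 and -0.29. Txnrd2, the mitochondrial reductase, lay within the SD in all 4 of its detected probe sets, from -0.19 to 0.11. The representative probe set of Txnrd1 was slightly above 0 under 3 alternatives (0.04 after quantile normalization).

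**Figure D2:**
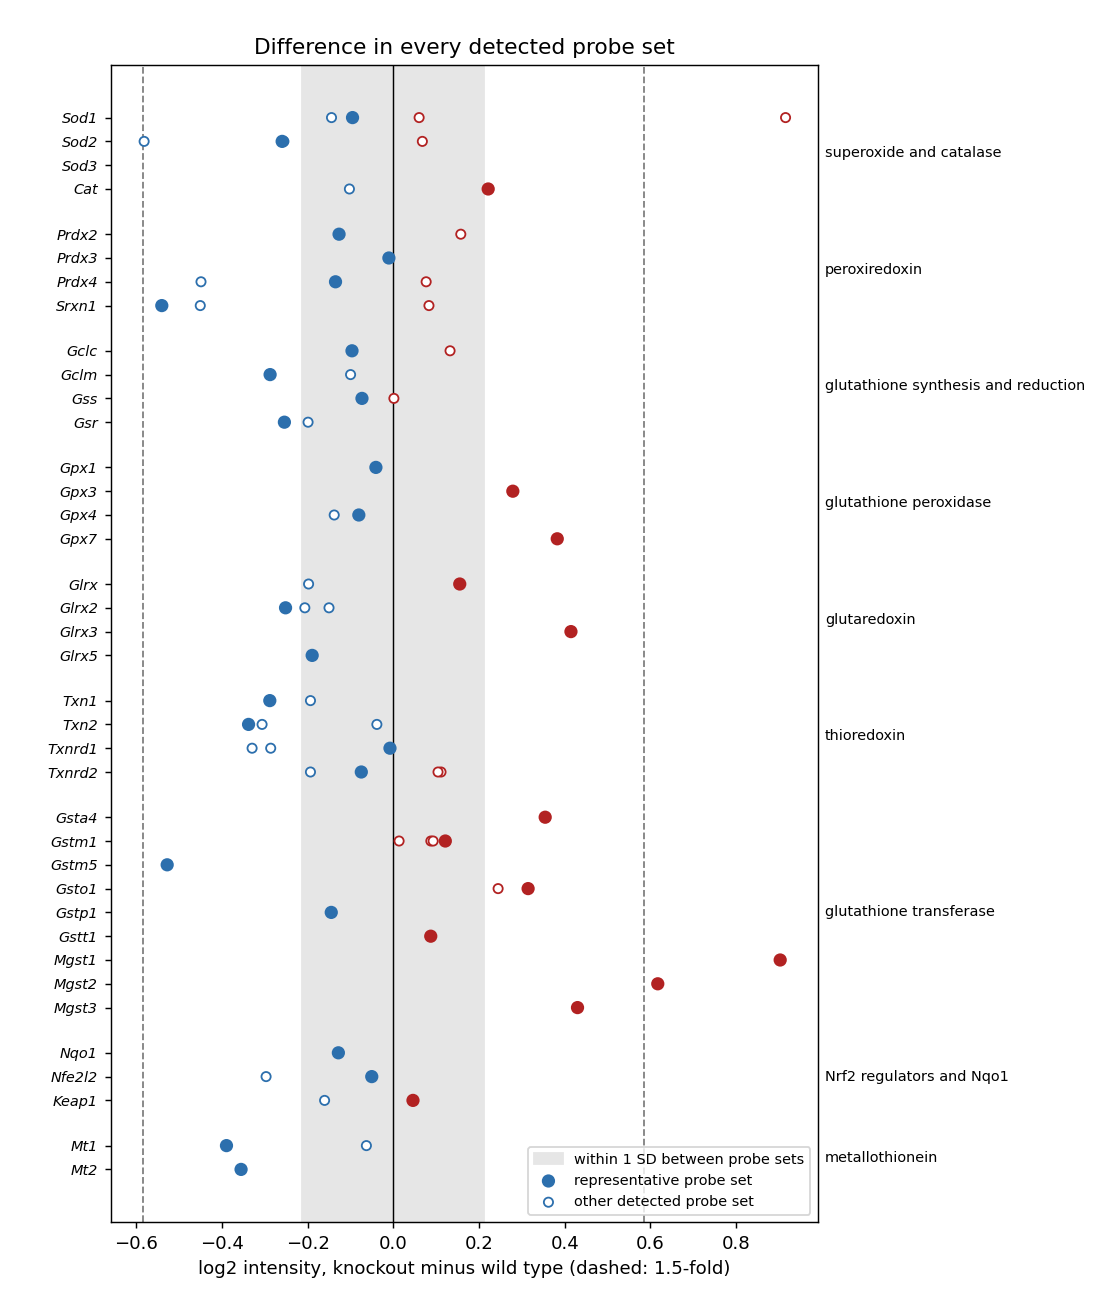
Log2 intensity difference, knockout minus wild type, in every detected probe set of each antioxidant gene (x axis), with representative probe sets as filled and others as open points, red above 0 and blue below. The grey band spans 1 SD between probe sets (0.21) each side of 0, dashed lines mark 1.5-fold, and the probe sets of Sod1 reach 0.92. The point of Srxn1 at -0.45 is a bound.

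Of 9 glutathione transferase genes 7 were higher in the knockout, 5 of them by more than the SD, with a median of 0.31. Of all detected genes, 17.9% were higher by more than the SD and 50.0% lay below 0. Mgst1, Mgst2 and Mgst3 encode membrane proteins of the MAPEG family, which conjugate glutathione and reduce lipid hydroperoxides. Their start regions are shown because these 3 genes were all higher in the knockout. The windows run from 250 bases before to 50 after the annotated start (RefSeq, GRCm38.p6). Capitals mark the core of the antioxidant response element bound by Nrf2 (TGACNNNGC) in Mgst1 and an AP-1 site (TGANTCA) in Mgst2, each searched on both strands, and neither set of letters occurs in the Mgst3 window.
Mgst1, chr6:138140277-138140576, plus strand: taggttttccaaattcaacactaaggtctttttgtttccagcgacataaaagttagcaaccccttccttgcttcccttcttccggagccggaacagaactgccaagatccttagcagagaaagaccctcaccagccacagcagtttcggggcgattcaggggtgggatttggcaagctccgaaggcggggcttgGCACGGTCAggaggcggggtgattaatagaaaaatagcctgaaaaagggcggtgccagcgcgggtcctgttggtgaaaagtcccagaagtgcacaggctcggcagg
Mgst2, chr3:51660929-51661228, plus strand: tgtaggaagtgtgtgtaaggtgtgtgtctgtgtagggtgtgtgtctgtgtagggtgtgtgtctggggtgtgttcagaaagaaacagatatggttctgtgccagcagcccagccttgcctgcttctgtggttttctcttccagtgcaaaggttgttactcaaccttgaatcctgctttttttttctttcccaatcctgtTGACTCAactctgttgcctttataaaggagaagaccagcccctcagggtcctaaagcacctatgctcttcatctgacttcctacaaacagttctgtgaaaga
Mgst3, chr1:167393792-167394091, minus strand: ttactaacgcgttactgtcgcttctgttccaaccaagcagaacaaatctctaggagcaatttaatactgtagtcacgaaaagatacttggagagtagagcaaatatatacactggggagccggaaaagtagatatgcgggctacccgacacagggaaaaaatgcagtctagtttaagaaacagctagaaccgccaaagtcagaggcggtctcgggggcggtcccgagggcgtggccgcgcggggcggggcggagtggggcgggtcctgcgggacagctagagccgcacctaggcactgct
For Mgst1 the window is that of 1 of 2 annotated starts, and the other holds neither motif. An AP-1 site occurred in the windows of 7 of 36 antioxidant genes (19.4%), against 8.97% of 27025 genes. These were Prdx1, Glrx, Srxn1, Gstm5, Gstp1, Mgst2 and Mt2, of which Srxn1, Gstm5, Gstp1 and Mt2 lay below 0 in their representative probe sets. A match of letters is a description and not a binding site.

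Mgst1 had the largest difference of the 37 genes. It read 563 in the knockout and 304 in the wild type, 1.87-fold higher (0.90), and ranked 69 among all 11440 detected genes counted from the highest. Mgst2 read 327 in the knockout and 215 in the wild type, 1.53-fold higher (0.62, rank 233), which lies just past 1.5-fold. Mgst3 read 249 and 186, 1.35-fold higher (0.43, rank 577), just short of it. Each of these rested on 1 detected probe set, since the second probe sets of Mgst1 and Mgst3 lay under the median of all probe sets on both arrays. Other genes of the MAPEG family, listed after these values had been seen, differed less. Alox5ap, the activator of leukotriene synthesis, read 1880.5 in the knockout and 1742 in the wild type (0.12), the leukotriene synthase gene Ltc4s differed by 0.09 and the prostaglandin synthase gene Ptges by 0.17.

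The cytosolic transferases went both ways. Gsto1, an omega-class enzyme with glutaredoxin-like activity, read 1397 in the knockout and 1134 in the wild type (0.31) and was higher in both probe sets (0.24 in the other). Gsta4, which clears the lipid peroxidation product 4-hydroxynonenal, read 156 and 123 (0.35) in its only probe set. Gstm1 read 411 in the knockout and 382 in the wild type (0.12), with 0.01 to 0.09 in its other 3 probe sets, 1 of which held exactly the same value of 232 on both arrays. Gstt1 (0.09) and the abundant pi-class gene Gstp1 (1932 in the knockout, 2156 in the wild type, -0.14) lay within the SD. Gstm5, a mu-class enzyme, was lower. It read 201 in the knockout and 293 in the wild type (-0.53), 1.44-fold lower and rank 234 counted from the lowest, again by 1 probe set. Gstm1 and Gstm5 are related genes, and their values lay on opposite sides of 0.

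**Figure D3:**
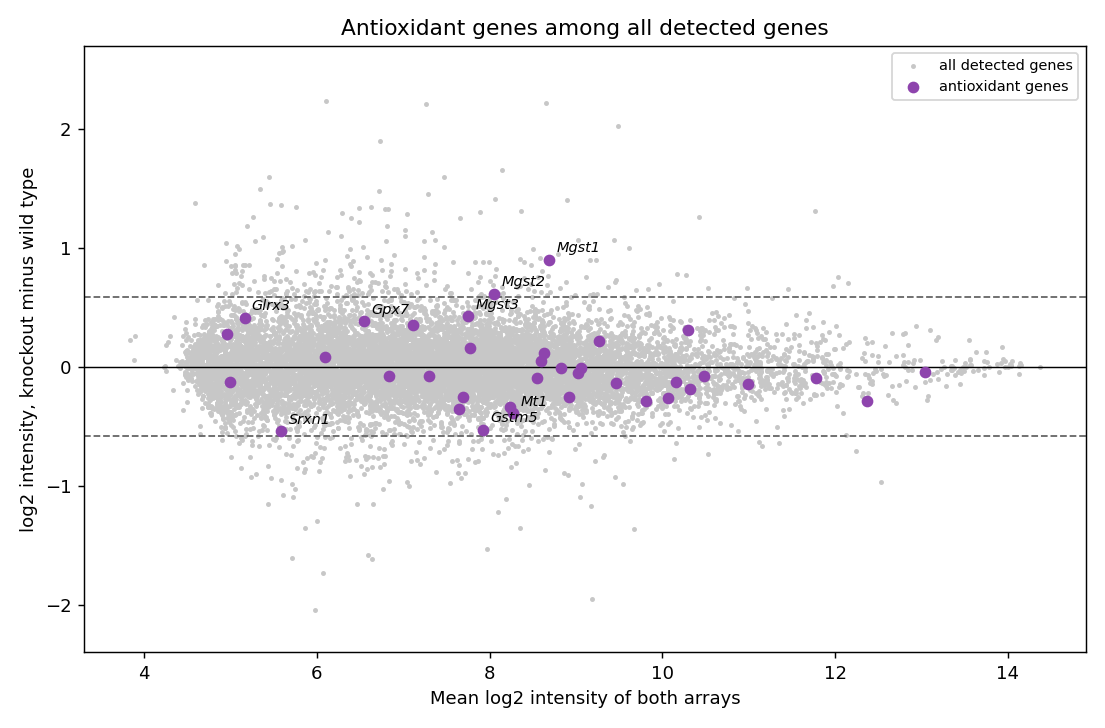
Log2 difference, knockout minus wild type, against the mean log2 intensity of both arrays for all 11440 detected genes (grey, 1 of them outside the plotted range) and the 37 antioxidant genes (purple). Only Mgst1 and Mgst2 of the purple points lie past the dashed 1.5-fold lines, with Srxn1 and Gstm5 the lowest.

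The regulators of the response differed by less than the SD in their representative probe sets. Nfe2l2, which encodes Nrf2, read 509.8 in the knockout and 533 in the wild type (-0.05), with -0.30 in its other probe set. Keap1, its inhibitor, read 392 and 383 (0.05), with -0.16 in the other. Nqo1, a quinone reductase often used as a readout of Nrf2, read 30.3 in the knockout and 33.4 in the wild type (-0.13), close to the median of all probe sets on both arrays. Of 10 detected genes listed as textbook Nrf2 targets, 8 were lower and 2 (Gsta4 and Gstm1) higher, and the median was -0.14. Among them 4 were lower by more than the SD (Srxn1, Txn1, Gclm and Gsr) and 1 was higher (Gsta4), and 0 passed 1.5-fold either way. Of all detected genes, 16.9% were lower and 17.9% higher by more than the SD, and 50.0% lay below 0.

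The antioxidant response element core is shown in its context in Gclm and Txnrd1, which are on that list, and in Gstm5, which is not. Their differences were -0.29, -0.01 and -0.53 in that order. For Txnrd1 the window is that of 1 of 3 annotated starts, and the others do not hold the core. Capitals mark the match on either strand, and the stretches are from RefSeq, GRCm38.p6.
Gclm, chr3:122245407-122245447, plus strand: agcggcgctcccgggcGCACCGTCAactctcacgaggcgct
Txnrd1, chr10:82859098-82859138, plus strand: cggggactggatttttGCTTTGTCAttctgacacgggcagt
Gstm5, chr3:107895796-107895836, plus strand: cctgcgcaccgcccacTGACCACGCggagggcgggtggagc
Start windows were on hand for 36 of the 41 genes. The core was found in those of 9 genes (25%), against 14.0% of 27025 genes in the same table. These were Sod1, Prdx1, Gclm, Txnrd1, Srxn1, Nfe2l2, Gstm5, Mgst1 and Mt2. Of the 9 matches, 2 overlapped an AP-1 site. Genes that hold the core included Mgst1, with the highest difference, and Gstm5 and Srxn1 on the lower side.

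The metallothioneins, small cysteine-rich proteins that bind zinc and copper and scavenge radicals, were both lower in the knockout. Mt1 read 269 in the knockout and 356 in the wild type, 1.31-fold lower (-0.39). Its other probe set, dim at 42.7 and 45.1, gave -0.06. Mt2 read 176 in the knockout and 227 in the wild type, 1.28-fold lower (-0.36), by its only probe set. These genes are neighbours on chromosome 8 and are known to be induced by zinc through metal response elements, so their start windows (RefSeq, GRCm38.p6) are printed with every match to the core of that element (TGCACNC or TGCGCNC, both strands) in capitals.
Mt1, chr8:94178839-94179138, plus strand: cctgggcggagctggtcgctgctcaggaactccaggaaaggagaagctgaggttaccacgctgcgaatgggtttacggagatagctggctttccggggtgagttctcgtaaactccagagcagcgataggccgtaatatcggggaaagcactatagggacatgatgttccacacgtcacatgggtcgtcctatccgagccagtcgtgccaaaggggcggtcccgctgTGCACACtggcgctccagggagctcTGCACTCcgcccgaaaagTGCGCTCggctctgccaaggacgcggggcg
Mt2, chr8:94172368-94172667, plus strand: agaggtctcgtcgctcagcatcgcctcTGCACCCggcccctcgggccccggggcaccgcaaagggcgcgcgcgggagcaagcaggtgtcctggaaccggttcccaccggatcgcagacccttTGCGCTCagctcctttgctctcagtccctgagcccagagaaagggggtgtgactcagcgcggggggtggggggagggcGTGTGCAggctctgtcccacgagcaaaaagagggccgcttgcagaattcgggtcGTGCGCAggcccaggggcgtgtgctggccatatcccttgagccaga
The Mt1 window holds 3 matches and the Mt2 window 4, and 28.2% of all genes with a window hold at least 1. In Mt2 an antioxidant response element core, which overlaps an AP-1 site, lies 79 bases before the start and is not in capitals here.

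The 6 detected genes listed here as mitochondrial (Sod2, Prdx3, Txn2, Txnrd2, Glrx2 and Glrx5) were all below 0 in their representative probe sets. Their median was -0.22, with a range of -0.34 to -0.01. The list was chosen by hand and does not describe the compartment as a whole. Genes with products in several places, such as Mgst1 (0.90) and Gsr (-0.25), were not on it. Prdx3 was above 0 under 3 alternatives (at most 0.04), and Txnrd2 lay at 0.01 when its probe sets were summarised by their median. Sod2, Txn2 and Glrx2 were lower by more than the SD, and none reached 1.5-fold. Over all detected genes, 16.9% were lower by more than the SD and 50.0% lay below 0. Grouped by system, the median was -0.18 for thioredoxins and reductases, -0.18 for glutathione synthesis and reduction, -0.13 for the peroxiredoxin system, -0.10 for dismutases with catalase, -0.05 for Nrf2, Keap1 and Nqo1, and -0.37 for metallothioneins. It was -0.02 for glutaredoxins and 0.12 for glutathione peroxidases. All of these medians rest on 2 to 4 genes each.

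Lists of related redox genes held 2 genes past 1.5-fold, Msrb3 and Ncf1. A further list mixed Nrf2 targets, NADPH-supplying genes, and regulators, partners or relatives of Nrf2 such as Cul3, Bach1 and Mafg. Of its 20 detected genes, 9 were higher and 11 lower, with a median of -0.02, and 0 passed 1.5-fold either way. This median is therefore not that of Nrf2 targets alone. By more than the SD, 1 was higher and 4 were lower, against 17.9% and 16.9% of all detected genes. Hmox1 and Slc7a11, which are classical Nrf2 targets, were not detected on either array. Of 26 detected further redox enzymes, 11 were higher and 15 lower, with a median of -0.05, and 1 passed 1.5-fold. This was Msrb3, a methionine sulfoxide reductase, which read 70.9 in the knockout and 41.01 in the wild type (0.80). Of 7 detected genes of NADPH oxidase, the enzyme with which phagocytes make superoxide, 5 were higher and 2 lower. Ncf1, a cytosolic subunit of that oxidase, read 518 in the knockout and 211 in the wild type, 2.48-fold higher (1.31), and its other probe sets gave 0.60 and at least 0.67.

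Genes listed as markers of other blood cells also differed between the samples. Of all detected genes, 2.32% were at least 1.5-fold higher in the knockout, 1.55% were at least 1.5-fold lower, and 50.0% lay below 0. Of 11 measured monocyte and macrophage markers 10 were detected, 7 higher and 3 lower, with a median of 0.19 and 3 at least 1.5-fold higher. The M-CSF receptor gene Csf1r read 770.2 in the knockout and 294 in the wild type, Irf8 read 531 and 315, and C1qc was higher by at least 0.85 on the log2 scale, whereas the monocyte marker Ccr2 differed by -0.45. Their intensities summed to 3054 in the knockout and 2429 in the wild type, and Adgre1, which marks macrophages, was not detected. Neutrophil granule markers had a median of -0.19 over 12 detected genes, 2 higher and 10 lower, with Ms4a3 at -0.72, and summed to 14341 and 16861. Erythroid markers had a median of -0.11 over 10 detected genes, 4 higher and 6 lower, with Gata1 at -0.84, Icam4 at -0.59 and Slc4a1 at 0.49, and summed to 5225 and 4917. Alas2, Epb42, Rhag and Trim10 of this list were not detected. Megakaryocyte markers had a median of -0.52, all 8 detected genes being lower, with Pf4 at -0.77, Selp at -0.73 and Vwf at -0.66, and summed to 963 and 1434. Lymphoid markers had a median of 0.36 over 11 detected genes, 9 higher and 2 lower, with Il7r at 1.33, Dntt at 1.31 and Blnk at 1.14, and summed to 7630.4 and 4056. Each sum follows the brightest genes of its list and can differ in direction from the median. Dntt alone read 5492 in the knockout and 2228 in the wild type, and the erythroid Car2 read 3868 and 3383. No measured marker had an intensity of 0. Probe sets that were not detected also read above 0, so this does not show that a cell type was present. Nor do the values show whether the listed genes were read from other cells or from the stem cells themselves. The part of either in the differences of Mgst1, Mgst2, Ncf1 and the other genes above was not tested.

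**Figure D4:**
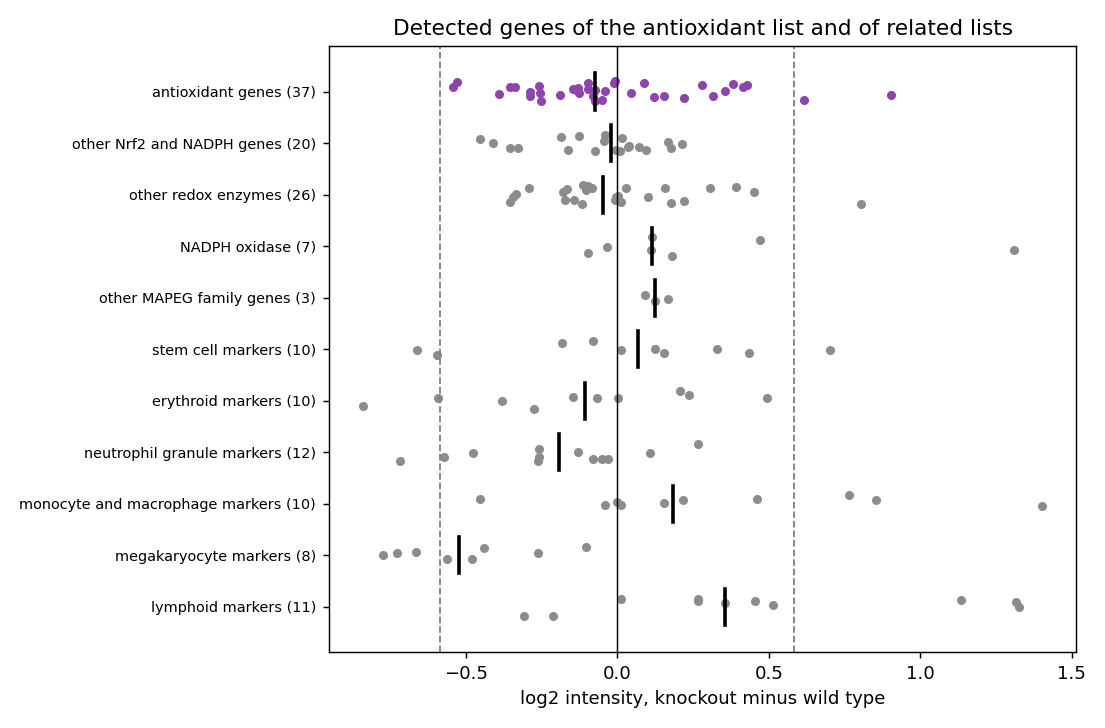
Log2 difference, knockout minus wild type, of each detected gene of the antioxidant list (purple) and of related redox and cell marker lists (grey), with the number of genes in brackets, the median as a black bar and 1.5-fold as dashed lines. The antioxidant genes centre at -0.07, the megakaryocyte markers at -0.52 and the lymphoid markers at 0.36, and vertical scatter within a list has no meaning.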

How the data were processed

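The deposited table holds a linear intensity for each of 45037 probe sets on each array. MAS5, with no version, is the only program in the submitters' processing notes, and the authors' background and scaling steps are not described there. Exactly equal values on both arrays occurred in 2535 probe sets (5.63%), 2 of them in the antioxidant genes, so small differences may reflect processing that is not known here. The platform's annotation gave 34945 probe sets 1 gene and 932 several, and did not list 9160. Intensities were converted to log2 and the median log2 difference of detected probe sets with 1 gene (-0.01) was subtracted. Genes equal on both arrays, such as Pax5, Fcgr1 and Gstt3 of the marker and redox lists, therefore count as higher. So does the erythroid Car1, which read 107.7 in the knockout and 108.5 in the wild type. Each gene was represented by its probe set with the highest mean intensity. Values under an array's median over all probe sets were set to that median, which makes such a difference a lower bound. A change of 1.5-fold was the size at which genes were counted. The members, gene lists and sizes were chosen with earlier results of these data known. All listed genes may be named, and of other lists those at or past 1.5-fold, with Ppm1d. The few undetected or otherwise singled-out genes of other lists were named after their values were seen. Python 3.11.15, pandas 2.3.3 and numpy 2.4.6 were used, and the steps were tested on simulated data. The number of arrays limits the precision. Alternatives changed the centring, normalization, floor, offset or probe set choice.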

Additional observations from a re-analysis of the deposited data

How the results depend on the processing

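No paired analysis was possible because each genotype had 1 array, and for the same reason no replicate could be left out. Over 10 alternatives, the median difference of the antioxidant genes ranged from -0.09 to -0.0045, below 0 in each, and the count at least 1.5-fold lower was 0 in each. The count at least 1.5-fold higher was 2 except in 3 settings. It was 1 with the floor added as an offset, which brought Mgst2 to 0.56, 1 without the probe set classes _s_at, _x_at and _a_at, which leaves Mgst1 with no detected probe set, and 0 at 2-fold. Mgst1 lay between 0.84 and 0.95 in the settings that gave it a value. Of 447 values for single genes and systems, 443 moved by under 1 SD between probe sets. This count was partly fixed in advance, since some alternatives could hardly move a value. Leaving out the centring shifted each value by 0.01, and centring on all probe sets gave the same values as no centring. Removing the floor left these values unchanged. Without those classes Srxn1 was 0.08, Gclc 0.13 and Mt1 -0.06, and as the median of its probe sets Txnrd1 was -0.29. Each of these takes its value from a different probe set by construction. The median of the glutathione peroxidases changed sign in 1 setting, that of the glutaredoxins in 3 and that of Nrf2, Keap1 and Nqo1 in 1. The counts of all genes past 1.5-fold were 265 higher and 177 lower, against 144 and 104 with the offset and 123 and 81 with a floor at the 75th percentile. Detection calls, background values and replicate arrays were not used here, so dim genes such as Srxn1, Nqo1, Gpx3 and Glrx3 are limited by signal over background.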

Other observations

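In 5 probe sets of the antioxidant genes, those of Prdx3, Gpx1, Gclc, Txn2 and Nfe2l2, the deposited values shared 1 fractional part, when taken modulo 0.5, that also occurred in 1611 probe sets on the knockout array and 1576 on the wild-type array. The step that produced it is not described in the labels.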
